A study of Mus musculus with 3 samples.

Results

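The Snora genes of the mouse annotation encode the box H/ACA small nucleolar RNAs. Members were all genes whose symbol starts with Snora and whose transcript class is snoRNA, which gave 42 genes of 55536 annotated genes. They carry 40 symbols, because Snora43 and Snora16a each name 2 overlapping gene IDs. All 42 were annotated as one transcript each, none longer than 205 bases, on GRCm38 (mm10) with GENCODE M21.

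Box H/ACA RNAs are cut in most mammalian cases from the introns of host genes. They fold into a pair of hairpins joined by a hinge that carries box H, and end in a short tail that carries box ACA. Each forms a particle with dyskerin (Dkc1), Nop10, Nhp2 and Gar1, in which a loop of the RNA pairs with its target and dyskerin turns a uridine into pseudouridine. Most known targets lie in ribosomal and small nuclear RNA, while U17 (Snora73a and Snora73b) acts in the cleavage of the ribosomal RNA precursor.

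The 3 libraries form a single group of bone marrow-derived macrophages of strain C57BL/6J, treated with lipid A at 100 ng/ml for 15 min. Lipid A anchors bacterial lipopolysaccharide in the outer membrane and is sensed by TLR4. Ribosomal RNA was depleted from RNA of the chromatin fraction before sequencing. No untreated library was used here, so no effect of lipid A could be measured, and age and sex were not recorded. The replicates carry separate biosample labels and the same donor label, so the spread between them may be partly technical. With 3 libraries an exact sign-flip test cannot go below p = 0.25, and no test was run.

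The libraries held 10774225, 21298242 and 14308209 expected counts over annotated genes in replicates 1, 2 and 3. Starting RNA was 1 µg, 250 ng and 500 ng, and the size range, per the labels, was 250 to 400. A floor of 3 counts equals 0.278, 0.141 and 0.210 counts per 1000000 annotated counts (CPM), and floors and intervals here cover counting error only. All 10 macrophage markers stood at 1 TPM (transcripts per 1000000, a level per effective length) or more in every library, against 0 of 7 neutrophil, 0 of 5 T cell and 0 of 4 B cell markers, in the gene table. In the second table described below, Cd3d was the only one of these other markers at 1 TPM or more in every library, at 16.7, 11.5 and 20.2 TPM. The T cell markers Cd3g, Lck, Cd3e and Cd2 averaged 1.28, 0.17, 0.12 and 0 TPM there. The neutrophil markers Mpo and Camp averaged 1.49 and 1.24 TPM. In replicate 2, Cd3g, Mpo and Camp stood at 0.89, 0.82 and 0.71 TPM. The remaining neutrophil and B cell markers averaged under 1 TPM. The genes Gm26917 and Gm42418 together took 4.68, 20.9 and 10.6% of the annotated counts.

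The RNAs on which the results turn are shown from the GENCODE M21 transcripts, in DNA letters from 5′ to 3′. Capitals mark box H, searched as ANANNA on the transcript strand between 33.3 and 66.7% of its length and, where several match, the match nearest to the midpoint, and box ACA where it lies exactly 3 bases before the end. Snora73a (chr4:132352775-132352979, minus strand) and Snora73b (chr4:132352322-132352526, minus strand) hold most of the counts. They differ at 7 of 205 aligned positions, with no gaps, and are 96.6% identical. Snora68 (chr8:70895759-70895889, minus strand) and Snora26 (chr5:74093530-74093650, plus strand) rank differently by counts and by TPM. Snora78 (chr17:24719676-24719803, minus strand) had the largest excess in replicate 2 among members with a mean of at least 10 counts. It passed that minimum only through replicate 2, with 3, 86 and 4 counts in replicates 1, 2 and 3, so its rank rests in part on the filter. Snora31 (chr14:75847905-75848034, plus strand) and Snora30 (chr7:127527874-127528003, plus strand) differ most between the deposited quantifications.
Snora73a: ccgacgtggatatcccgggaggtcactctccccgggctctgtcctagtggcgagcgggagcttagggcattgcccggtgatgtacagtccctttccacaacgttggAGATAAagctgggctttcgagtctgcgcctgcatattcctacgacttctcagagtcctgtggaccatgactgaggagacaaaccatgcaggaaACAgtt
Snora73b: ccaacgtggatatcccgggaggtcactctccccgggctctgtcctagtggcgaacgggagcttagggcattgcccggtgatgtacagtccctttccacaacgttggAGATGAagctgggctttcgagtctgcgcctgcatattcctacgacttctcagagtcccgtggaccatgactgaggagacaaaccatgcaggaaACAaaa
Snora68: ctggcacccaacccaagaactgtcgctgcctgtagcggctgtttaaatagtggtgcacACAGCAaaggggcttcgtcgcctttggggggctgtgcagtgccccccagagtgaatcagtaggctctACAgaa
Snora26: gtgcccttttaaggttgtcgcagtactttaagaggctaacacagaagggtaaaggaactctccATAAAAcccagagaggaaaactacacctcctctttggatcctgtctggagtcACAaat
Snora78: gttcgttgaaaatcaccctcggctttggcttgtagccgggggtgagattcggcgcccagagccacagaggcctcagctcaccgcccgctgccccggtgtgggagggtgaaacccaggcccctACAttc
Snora31: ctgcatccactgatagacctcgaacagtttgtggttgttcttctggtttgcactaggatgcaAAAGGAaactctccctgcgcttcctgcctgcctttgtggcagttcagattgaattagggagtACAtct
Snora30: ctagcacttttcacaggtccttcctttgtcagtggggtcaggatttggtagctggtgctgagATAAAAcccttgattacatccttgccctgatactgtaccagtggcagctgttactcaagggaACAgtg

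An ACA exactly 3 bases before the end was present in 35 of 42 Snora transcripts (83.3%). The same position held ACA in 0 of 98 Snord transcripts, which are box C/D snoRNAs, in 23.0% of 842 other snoRNA transcripts of the same lengths and in 2.06% of 2034 transcripts of those lengths outside the snoRNA class. ANANNA in that window was found in 39 of 42 Snora transcripts (92.9%), against 86.9% of the 842 other snoRNA transcripts and 59.8% of the 2034. Both boxes were present in 33 members (78.6%), against 21.4% of the 842 other snoRNA transcripts and 1.82% of the 2034. Of the 7 members without ACA at that position, Snora74a, Snora17, Snora28 and the 127-base Snora43 have it 2 bases before the end and Snora47 has it 4 bases before the end. Snora78 is among the 3 members with no ANANNA in the window. These are matches of letters and do not show that a box is used.

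Fewer than all Snora genes were measurable in the macrophage chromatin RNA, and a pair of paralogs and Snora74a carried nearly all of their reads. In the gene table, 19 of 42 members had at least 3 expected counts in each library, against 30.7% of all annotated genes. Another 4 reached 3 counts in at least 1 library, which made 23 of 42, against 20203 of 55536 annotated genes. At 0 counts in all 3 libraries were 13 of 42 members, against 30678 of 55536 annotated genes. For Snord genes the count was 4 of 98, and for scaRNA genes, the related RNAs of Cajal bodies, 10 of 51. In the second quantification, a further deposited table of estimated counts from the same libraries, 33 of 42 members reached 3 counts in each library, against 48.1% of annotated genes. There, 6 of 42 members were at 0 in all libraries, against 20824 of 55536 annotated genes.

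Summed over members, the gene table held 4111, 18835 and 4454 counts in replicates 1, 2 and 3. This was 0.0382% of annotated counts in replicate 1 (exact 95% binomial interval 0.0370 to 0.0393%). The share was 0.0884% in replicate 2 (0.0872 to 0.0897%) and 0.0311% in replicate 3 (0.0302 to 0.0321%). The replicate 2 share lies above both others, and these intervals do not cover differences between libraries. The mean was 0.0526 ± 0.0313% (SD, n = 3). Snord genes held 0.0778 ± 0.0281% of counts. In these bulk samples fewer cells with an RNA and less of it per cell cannot be told apart.

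Snora73a and Snora73b are the mouse copies of U17. Snora73a had 1227, 8294 and 1589 counts in replicates 1, 2 and 3, or 114, 389 and 111 CPM. Snora73b had 1667, 7017 and 1928 counts, or 155, 329 and 135 CPM. Both were well above the floor in every library and highest in replicate 2. Snora74a (U19) on chromosome 18 had 980, 2222 and 726 counts, or 90.9, 104 and 50.8 CPM. These 3 genes took 94.2, 93.1 and 95.3% of all member counts, so the other 39 genes shared 237, 1302 and 210 counts. In the second quantification the same 3 genes took 80.8, 84.2 and 81.4%.

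The balance between the U17 copies shifted between libraries. Snora73a made up 42.4% of their summed counts in replicate 1 (exact 95% binomial interval 40.6 to 44.2%), 54.2% in replicate 2 (53.4 to 55.0%) and 45.2% in replicate 3 (43.5 to 46.8%). The second quantification gave 42.6, 55.0 and 46.1%. Snora73a was thus the larger share in replicate 2 and the smaller one in replicates 1 and 3, in both tables. The posterior SD that the gene table gives for the counts of each copy was 1.51 to 1.90. In every library the TPM of each copy lay above the gene table's own interval. For Snora73a in replicate 1 it was 2710 TPM, with an interval of 2368 to 2648 TPM. The part of read assignment between these near-identical RNAs in the shift was not tested.

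**Figure D1:**
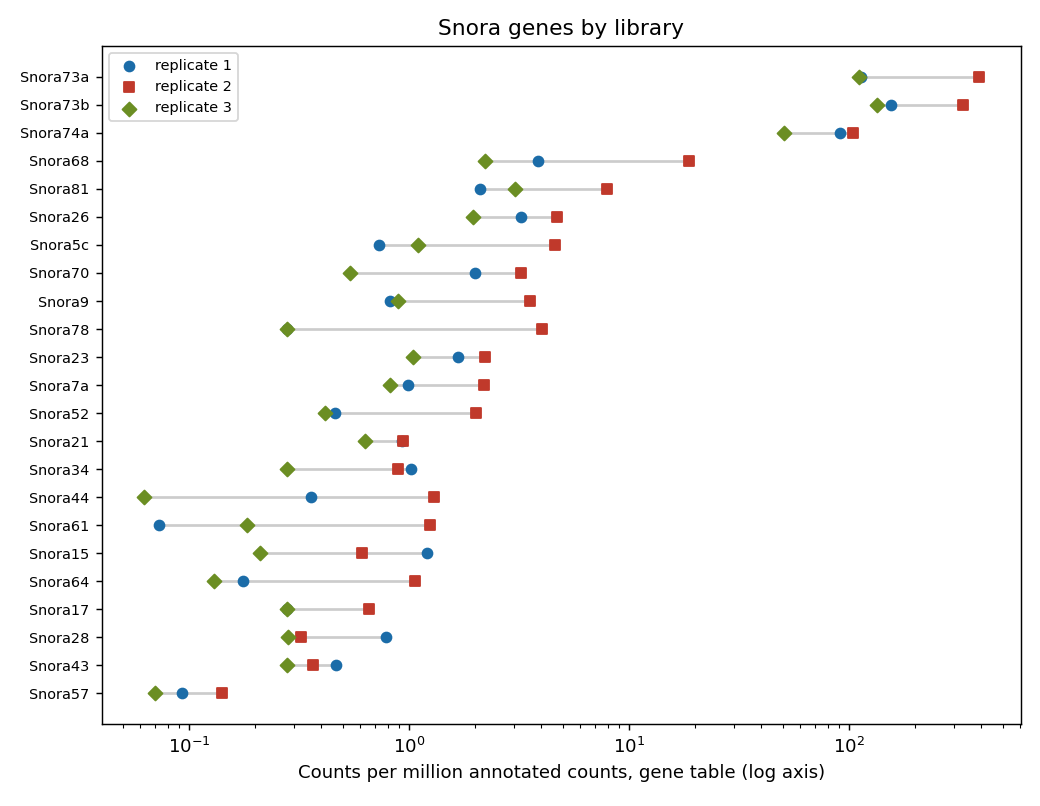
Level of the 23 Snora genes with at least 3 counts in any library, in CPM on a log axis (not per length), with a point for each of the 3 libraries and a line over their range. Snora73a, Snora73b and Snora74a lie between 50.8 and 389 CPM, and most genes have their highest point in replicate 2. The Snora43 shown is the longer of its 2 annotated IDs.

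Below these 3, counts were modest. Snora68 had 41.8, 401 and 31.8 counts in replicates 1, 2 and 3. Snora81 had 22.6, 169 and 43.3 counts, with a posterior SD of 3.3 to 4.0 counts, and is 98.9% identical to the annotated gene Gm22519. Snora26 had 35.0, 100.0 and 28.0 counts. All 3 genes exceeded the floor in every library and were highest in replicate 2. Snora5c had 7.88, 98.5 and 15.8 counts, and Snora9 had 8.85, 75.7 and 12.7. Snora70 had 21.6, 69.1 and 7.76 counts, and Snora23 had 18, 47 and 15. Snora7a had 10.7, 46.8 and 11.8 counts, and Snora78 had 3, 86 and 4. Snora78 thus sat at the floor in replicates 1 and 3 and well above it in replicate 2. Snora64, which lies in an Rps2 transcript, had 1.90, 22.7 and 1.86 counts and passed the floor only in replicate 2. Snora35, known as a brain snoRNA from the serotonin receptor gene Htr2c, was listed at 0 in every library of both tables, and Htr2c had 0 counts in the gene table.

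Effective lengths were tiny, above all for the shorter members. The effective length, the number of start positions a fragment can take, was 11.8 to 33.3 bases for the 5 members of 178 to 205 bases in the gene table. It was 0 to 6.50 bases for the other 37 members, the longest of which has 149 bases. All 5 longer members (Snora73a, Snora73b, Snora74a, Snora81 and Snora23) reached the floor in each library, and 14 of the 37 shorter ones did. In the second quantification effective lengths were 41.7 to 61.2 and 17.5 to 30.7 bases for these groups. Across 42 members the rank correlation of length with CPM was 0.32, given as a description over members that share the libraries.

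TPM divides counts by these effective lengths and changed the picture. Members took 1.37, 3.95 and 1.73% of gene-table TPM, a mean of 2.35 ± 1.40% (SD, n = 3), against 0.0526% of counts. The second quantification, with its longer effective lengths, put them at 0.836 ± 0.297% of TPM. Snora68 had 1357, 6762 and 1294 TPM and ranked 3 by mean TPM, ahead of Snora74a with 2589, 3516 and 2530 TPM. It led Snora74a in replicate 2 only, and Snora74a was higher in replicates 1 and 3. The gene table's own interval for Snora68 in replicate 1 ran from 914 to 1681 TPM. Snora26 had an effective length of 0 and was listed at 0 TPM in every library, although it ranked 6 by counts. In the second quantification Snora26 stood at 163, 168 and 90.2 TPM.

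**Figure D2:**
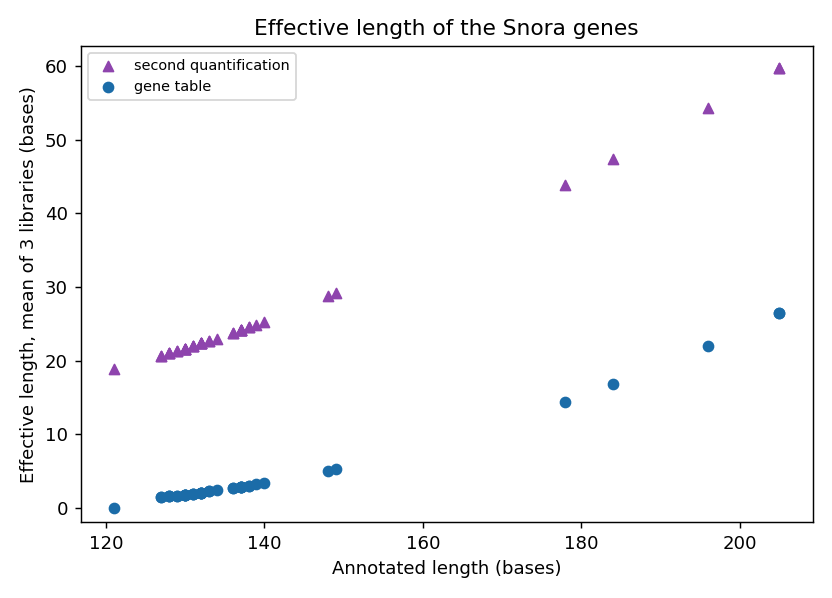
Effective length in bases, as the mean of 3 libraries, against annotated length in bases for the 42 Snora genes, with triangles for the second quantification and circles for the gene table. In the gene table, genes of up to 149 bases sit near 0 and the 5 longer genes lie clearly above them.

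The 2 quantifications differed in which members they detected. Summed over members, the second quantification held 1.26, 1.31 and 1.37 times the gene table's counts in replicates 1, 2 and 3, against 1.58, 1.73 and 1.72 times over all annotated genes. The smallest ratios of mean counts were 1.14 for Snora74a, 1.15 for Snora73b, 1.16 for Snora81 and 1.19 for Snora73a. Relative to each table's total these genes were lower in the second quantification, with 142, 139 and 54.6 CPM for Snora73a, Snora73b and Snora74a, against 205, 206 and 82.0 CPM in the gene table. Snora68, with 8.59 CPM in the second quantification and 8.32 CPM in the gene table, differed little on that scale. Among the 16 members with a mean of at least 10 gene-table counts, 7 had a ratio above 2, beside 36.5% of annotated genes past that minimum.

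Snora31 was the extreme case. Its human counterpart has been linked to susceptibility to herpes simplex encephalitis. It had 167, 374 and 168 counts in the second quantification, against 2, 2 and 0 in the gene table, which makes the second quantification at least 78.8-fold higher when the gene table is set to the floor of 3 counts per library. Snora30 had 39, 123 and 68 counts in the second quantification, against 0, 1 and 0. Snora2b had 49.9, 53.8 and 44.9 counts in the second quantification and Snora62 had 33, 45 and 25, and both were at 0 in every library of the gene table. The bounds for these 3 were at least 25.6-fold, 16.5-fold and 11.4-fold. Snora7a had 56.1, 500 and 121 counts in the second quantification, against 10.7, 46.8 and 11.8 in the gene table, a ratio of 9.78. The longer Snora43 had 17, 82 and 50 counts, against 5, 7.80 and 4, a ratio of 8.87.

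In all, 10 of 42 members had fewer than 3 counts in each gene-table library and at least 3 in each library of the second quantification, against 13.6% of annotated genes. Of these, 7 were at exactly 0 in the gene table, against 10.1% of annotated genes. By position, they were 9 of the 15 members that lie only in introns of a host on the same strand. Another was 1 of the 4 members that overlap a host exon in part, Snora2b. Beside the 4 described above, they were Snora41, Snora36b, Snora47, Snora19, Snora20 and Snora69, with 3 to 39 counts per library in the second quantification. Snora19 is identical in sequence to the annotated gene Gm23658, and the second quantification gave both 7.69, 12.3 and 8 counts. None came from the 19 members inside a host exon, of which 13 lie in an exon of a retained-intron transcript, or from the 4 with no host. Leaving out Snora73a, Snora73b and Snora74a, the second quantification held 11.3, 7.65 and 16.3 times the gene-table counts of intron-only members. The ratios were 2.07, 2.18 and 2.80 for exonic members and 7.44, 6.80 and 12 for those with no host. Why the tables differ by position was not tested.

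**Figure D3:**
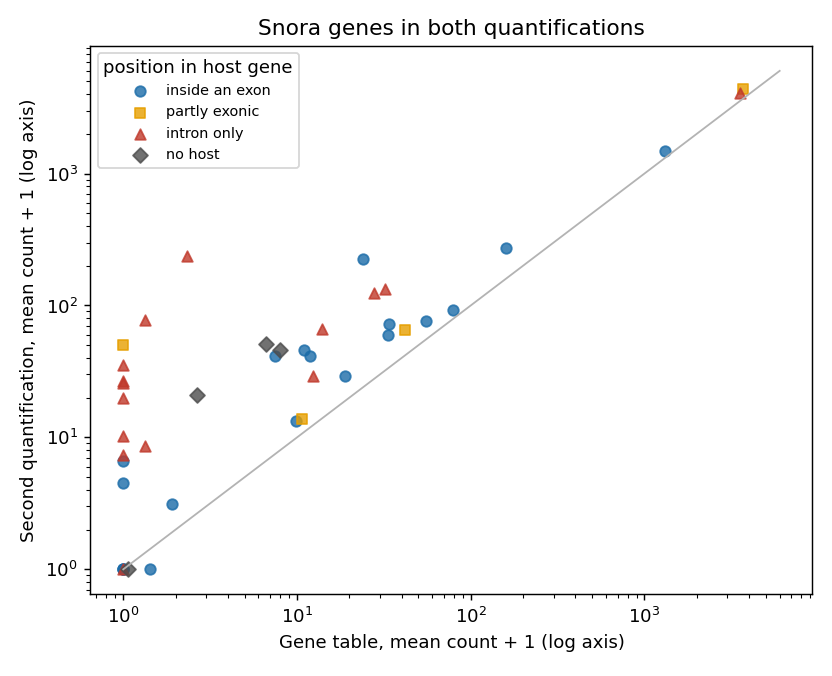
Mean count plus 1 over 3 libraries in the second quantification (vertical, log axis) against the gene table (horizontal, log axis) for the 42 Snora genes, marked by position in the host gene, with the line of equal counts. The highest genes lie close to the line, and intron-only genes make up most of the points at the left edge that lie well above it.

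Host genes were measured for 38 members, which lie in 33 hosts. Of the hosts, 11 encode ribosomal proteins and 8 are annotated outside the protein-coding class, among them Snhg3, Snhg8, Snhg9, Snhg12 and Snhg15. In TPM, the scale that takes length into account, 20 of 38 members exceeded their host in the gene table and 21 did in the second quantification, with 14 above it in both. In CPM, which is not per length, 6 of 38 did, with a median of 0.460 CPM over members and 17.4 CPM over hosts. The tiny effective lengths raise the members' TPM, so the counts by TPM rest on them. Members inside a host exon share their sequence with a host transcript, so the values of such pairs are not fully separate. Snora73a averaged 2243 ± 1360 TPM and Snora73b 2264 ± 757 TPM in the second quantification, against 2.39 ± 0.46 TPM for Snhg3, the non-coding gene that contains both (SD, n = 3). In the gene table Snhg3 had 11.7, 16.7 and 12.3 counts, and Rcc1, a protein-coding gene that also spans both, had 47, 135 and 51. The excess of the U17 copies over their hosts was present in every library. Snora78 averaged 168 ± 171 TPM and lies in Snhg9, which averaged 5.44 ± 1.64 TPM there and was listed at 0 in the gene table. Snora78 is also antisense to Rps2, and the use of strand in counting is not given in the sources used here, so reads of the 2 genes may be mixed. The same limit holds for Snora73a and Snora73b, which are antisense to Gm17300, and for Snora23, which is antisense to 1600010M07Rik. In the opposite direction, Snora81 averaged 60.6 ± 44.6 TPM in the second quantification, against 335 ± 66.8 TPM for Eif4a2.

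Across the 38 pairs, members and hosts showed no common order. The rank correlation of mean CPM was -0.28 in the gene table, -0.0486 in the second quantification and -0.15 for gene-table TPM. These are descriptions over members that share libraries and in part a host. For example, Snhg12 had 14.3 ± 1.5 CPM and holds Snora44, with 0.359, 1.31 and 0.0622 CPM, and Snora61, with 0.0733, 1.25 and 0.184 CPM, while both Snora16a IDs in it stayed under 2 counts. In TPM the order turns round, with 243 TPM for Snora44 and 208 TPM for Snora61 on average, against 12.1 TPM for Snhg12, and with 63.7 and 59.2 TPM, against 10.5 TPM, in the second quantification.

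**Figure D4:**
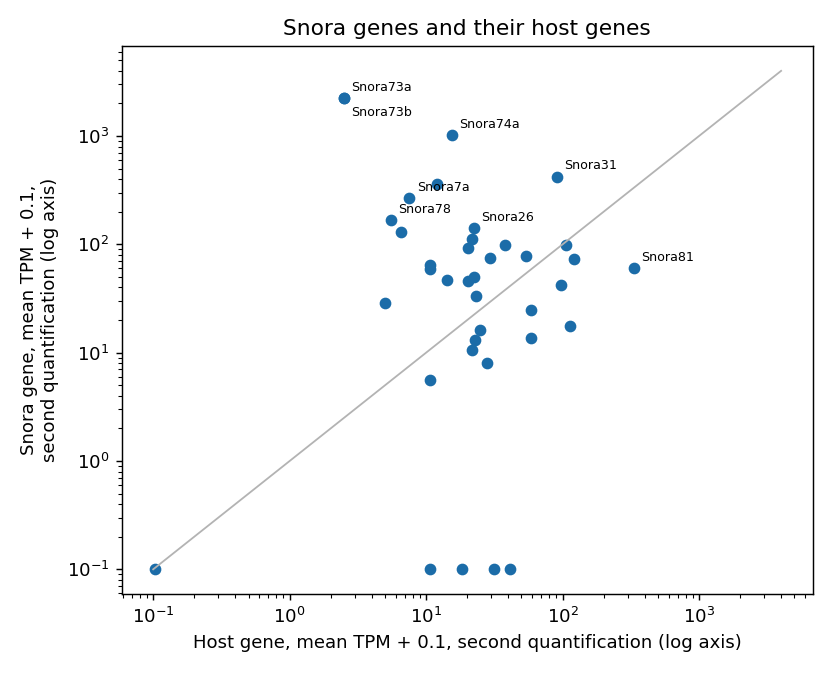
Mean TPM plus 0.1 of 38 Snora genes (vertical, log axis) against that of their host genes (horizontal, log axis), over 3 libraries of the second quantification, with the line of equal level. Snora73a and Snora73b lie farthest above the line, over Snhg3, and Snora81 lies below it at the right.

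Most Snora RNAs with enough reads to compare took their largest share of counts in replicate 2. Of the 19 members with at least 3 counts in each library, 15 had their highest CPM there. Snora34, Snora15, Snora28 and the longer Snora43 had it in replicate 1. The share of annotated genes was not counted for this rule, so the 15 stand without a background. Among the 11 members with a mean of at least 10 counts over replicates 1 and 3, a minimum that does not use replicate 2, all 11 had their highest CPM in replicate 2, against 15% of annotated genes past the same minimum. Of these, 8 exceeded 2 times the mean of replicates 1 and 3, against 0.795% of annotated genes. With the minimum set over all 3 libraries, 15 of 16 members were highest in replicate 2, against 16.1%, the exception being Snora34 with 0.892 CPM in replicate 2 and 1.02 and 0.280 CPM in replicates 1 and 3. Of the 16, 11 exceeded 2 times the mean of replicates 1 and 3, against 1.49% of annotated genes. A mean over all 3 libraries favours genes that are high in the deepest one.

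Snora73a was 3.46-fold, Snora73b 2.28-fold and Snora74a 1.47-fold higher in CPM in replicate 2 than the mean of replicates 1 and 3. Snora68 was 6.18-fold higher and Snora5c 5.03-fold higher. For Snora78, with 4.04 CPM in replicate 2 and 0.278 and 0.280 CPM in replicates 1 and 3, the ratio was 14.5, on 3 and 4 counts in the lower libraries. The summed members were 2.55-fold higher in replicate 2 by library totals and 3.49-fold and 3.58-fold higher with TMM and DESeq2 scaling. The median log2 difference of replicate 2 from the mean of replicates 1 and 3, on the CPM + 0.5 scale, was 1.18 for the 11 members chosen without replicate 2, against -0.45 for 15348 annotated genes past the same minimum. With TMM scaling, which raises replicate 2 for all genes, these medians were 1.63 and -0.05. In the second quantification, 23 of 30 members with a mean of at least 10 counts were highest in replicate 2, against 9.61% of annotated genes. That minimum was over all 3 libraries and so favours genes high in replicate 2. A minimum without replicate 2 was not used for that table.

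Other small nucleolar classes were also mostly highest in replicate 2. The minimum here was a mean of at least 10 counts over all 3 libraries, which favours genes high in replicate 2. Past it, 8 of 9 scaRNA genes, 3 of 4 Snord genes and 32 of 42 other snoRNA genes were highest in replicate 2. Of 36 genes of the same length range outside these classes, 4 were. Hosts of members with a mean of at least 10 counts were compared where the host also had that mean, which left 14. Of these 14, 5 were highest in replicate 2 (10 with TMM scaling) and 0 exceeded 2 times the mean of the others. Among annotated genes past that minimum, 16.1% were highest in replicate 2 (39.5% with TMM scaling) and 1.49% exceeded 2 times the mean of the others. Over all 31 hosts past it, 12 were highest in replicate 2. Replicate 2 also had the least starting RNA, the most counts and the highest share of Gm26917 and Gm42418. With these 2 genes left out of the totals, the Snora share was 0.112% in replicate 2 and 0.0400 and 0.0348% in replicates 1 and 3, a wider gap than with them. The part of starting RNA and depth in the excess was not tested.

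**Figure D5:**
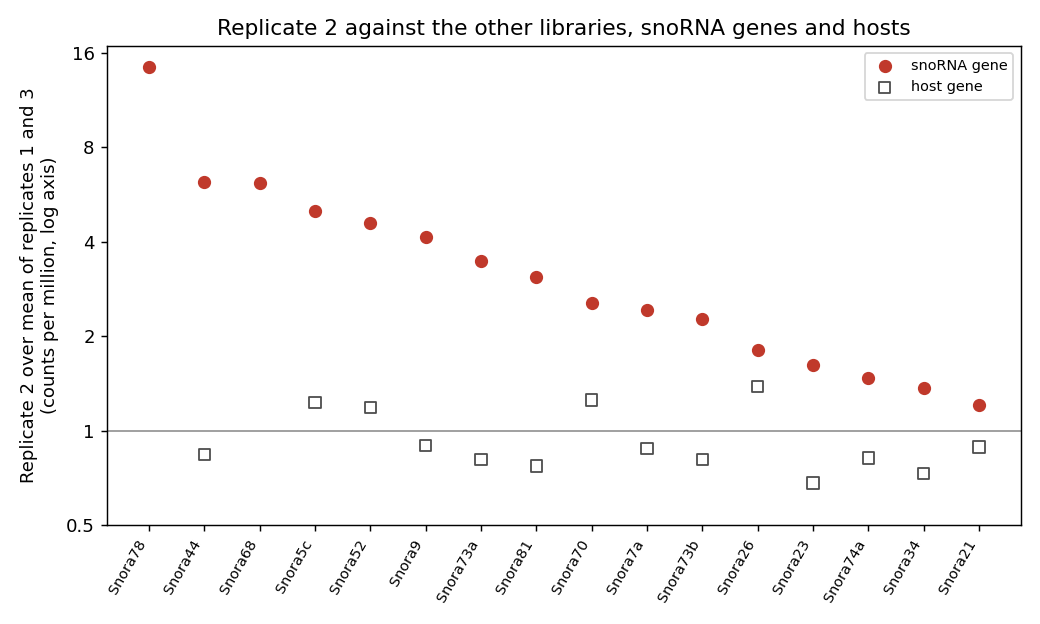
Replicate 2 over the mean of replicates 1 and 3, in CPM on a log axis, for the 16 Snora genes with a mean of at least 10 counts (filled circles) and for the host of each (open squares, where the host has counts and is reported). The Snora genes lie between 1.21 and 14.5, and the highest host is at 1.38. The minimum uses replicate 2, and 11 of the 16 genes also pass it over replicates 1 and 3. The genes at both ends of the range, Snora21 and Snora78, do not.

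The spread between libraries was accordingly wide. The median SD of log2(CPM + 0.5) was 0.84 for the 16 members, against 0.36 for 15536 annotated genes past the same minimum. It was 0.88 for the 11 members chosen without replicate 2, against 0.36 for the genes chosen so. Snora68 had the widest spread with an SD of 1.48, followed by Snora78 with 1.47 and Snora5c with 1.09. Of these, Snora78 passed the minimum only through replicate 2. Snora21 had the narrowest with 0.20, at 0.928, 0.939 and 0.629 CPM. Without replicate 2 the median of the members was 0.31. The rank correlations between pairs of libraries were 0.91, 0.94 and 0.94 over 42 genes, of which 13 are tied at 0. Over the 19 genes at the floor in each library they were 0.69, 0.75 and 0.88.

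The genes whose products build H/ACA particles were themselves measured in the chromatin RNA. Levels are from the gene table unless stated. Of the 4 core proteins, 3 stood at 1 TPM or more in every library. Dkc1, the pseudouridine synthase, averaged 11.4 ± 5.23 TPM, with 15.2, 5.43 and 13.5 TPM in replicates 1, 2 and 3. Replicate 2 was also the lowest library for the summed gene-table TPM of the macrophage markers (996, 590 and 1062 TPM) and the box C/D core proteins (62.0, 47.0 and 66.0 TPM). All protein-coding genes together took 24.0, 16.7 and 25.3% of gene-table TPM, again the least in replicate 2. In CPM the markers were mixed. Csf1r, Adgre1, Itgam and Mertk were highest in replicate 2, and the other macrophage markers were lowest there. Gar1, which binds dyskerin in the mature particle, averaged 4.30 ± 0.60 TPM, and Nhp2, an RNA-binding core protein, 3.65 ± 1.27 TPM. Nop10, a small core protein, averaged 0.46 ± 0.41 TPM on 1, 11 and 12 counts. The list median was 3.97 ± 0.93 TPM, against 0.54 ± 0.16 TPM over all protein-coding genes, of which 9345 of 22028 stood at 1 TPM or more in every library.

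Of the 10 matched genes on the list of assembly factors, 9 stood at 1 TPM or more in every library of the gene table. The list median was 2.99 ± 0.84 TPM. This list also holds factors of box C/D particles, among them Znhit3 and Znhit6. The count and the median are therefore not for H/ACA factors alone. Naf1, which holds the place of Gar1 in the immature particle, averaged 1.44 ± 0.40 TPM, and Shq1, a chaperone of dyskerin, 2.97 ± 0.80 TPM. Znhit3, from the same list, averaged 1.35 ± 0.61 TPM and was under 1 TPM in replicate 2. That call depends on the table used, since the second quantification put Znhit3 at 11.8, 5.93 and 12.8 TPM. Telomerase RNA also ends in an H/ACA domain, and its gene Terc had 2, 21 and 6 counts, the most in replicate 2. Tert, the reverse transcriptase, had 4, 5 and 2 counts, and averaged 0.09 TPM in the gene table and 0.69 TPM in the second quantification. Wrap53, which brings scaRNAs and telomerase RNA to Cajal bodies, averaged 2.51 ± 0.67 TPM.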

How the data were processed

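RNA of the chromatin fraction was measured in 3 libraries of 1 group. Per the file headers, the authors' gene table and a matching transcript table give expected counts, TPM, effective length, posterior SD and, for transcripts, the percent of the gene taken by each isoform. A further deposited transcript table, the second quantification, gives estimated counts and TPM and was summed per gene. The assembly was mm10, per the labels, with GENCODE M21. Which aligner, programs, versions and strand settings were used is not given in the sources used here. For all members the gene and transcript tables gave equal counts.

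CPM is expected counts per 1000000 annotated counts. Log values used log2(CPM + 0.5). The floor was 3 counts, and the minimum for spread and replicate 2 was a mean of 10 counts. TMM factors came from edgeR 4.0.16 and size factors from DESeq2 1.42.0 in R 4.3.3, on counts rounded to whole numbers. Other steps used Python 3.11.15, numpy 2.4.6, pandas 2.3.3, scipy 1.17.1 and Biopython 1.88, and were tested on simulated data. A host is the smallest annotated gene on the same strand that contains the member, leaving out small RNAs. None of the hosts found is annotated as a pseudogene.

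Members and lists were chosen with earlier results of these data known. The genes named are the 12 highest by count, the 6 highest by TPM, the 6 widest in spread, the 6 largest and 4 smallest ratios between tables, a fixed set, and the H/ACA protein and telomerase lists. Outside this rule, Snora15, Snora16a, Snora17, Snora21, Snora28, Snora19, Snora20, Snora34, Snora36b, Snora41, Snora44, Snora47, Snora61 and Snora69 were chosen after their values were seen. Snora63 was not among the members, and Nopchap1 had no match. The values of the host of Snora68 are not reported here. Of the members, 15 have another snoRNA at least 95% identical, and reads of such copies may be split between them. The full sequence of each of the 19 members inside a host exon also lies in another annotated transcript. Reads of host RNA may therefore be counted for these members, and theirs for the host.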

Additional observations from a re-analysis of the deposited data

How the results depend on the processing

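No paired analysis was possible because the libraries form 1 group. With a floor of 10 counts 8 members passed in every library, where the share of annotated genes was not counted. In the second quantification 33 passed the floor of 3 counts. The members' mean share of TPM was 0.837% in the second quantification and 0.606% with counts per kilobase of annotated length. The summed ratio of the second quantification to the gene table was 1.39 without Snora73a. The median Snora level exceeded the median Snord level by 0.49 ± 0.25 on the log2(CPM + 0.5) scale, with the median Snord gene at 0 counts. This difference was 5.36 with log2(TPM + 1) and 1.15 in the second quantification, and it reversed to -5.88 after a filter on low values, which left 23 Snora and 5 Snord genes. The median spread of members was 0.99 with TMM factors, 0.99 with DESeq2 size factors, 0.93 with a minimum mean of 30 counts, 0.88 with the minimum over replicates 1 and 3 and 0.53 in the second quantification. The rank correlation with hosts was -0.0486 in the second quantification and -0.15 in TPM. The cause of these changes was not tested.

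Leaving out each library in turn gave 19 to 20 members at the floor, shares of 0.0346 to 0.0633% of counts and 1.55 to 2.84% of TPM, ratios of 1.28 to 1.34, Snora minus Snord differences of 0.35 to 0.60, host correlations of -0.30 to -0.23 and median spreads of 0.31 to 0.94, the lowest without replicate 2. Members highest in replicate 2 numbered 16 of 16 with TMM and with DESeq2 scaling, against 39.5 and 41.8% of annotated genes, both chosen after seeing the data, as were the minimum over replicates 1 and 3 and the totals without Gm26917 and Gm42418. Of 19 named members, 8 moved beyond their SD in the second quantification and 0 did with TMM or DESeq2. Without replicate 2 the mean CPM of 9 of the 16 named members above 0 fell by more than 1.5 times, for example to 3.05 from 8.32 for Snora68, to 0.279 from 1.53 for Snora78 and to 0.918 from 2.15 for Snora5c. At 3 counts the data cannot separate absent from low members.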
